A study of Mus musculus with 16 samples.

Results

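Which transcripts of skeletal muscle favour a single ribosome and which favour several was read from 10 of the 16 arrays of the series, namely all 6 arrays of polysome RNA and all 4 arrays of monosome RNA. The tissue was gastrocnemius, a calf muscle, of male C57BL6 mice aged 8 to 16 weeks. The wild-type (WT) group gave polysome arrays 1, 2 and 3 and monosome arrays 1 and 2. The group heterozygous for Eif6 (Het, Eif6+/-), littermates of the former, gave polysome arrays 1, 2 and 3 and monosome arrays 1 and 3. Lysates treated with cycloheximide, which halts elongating ribosomes on their messages, were spun through a 15 to 50% sucrose gradient. Fractions with at least 2 ribosomes per message were pooled as polysome RNA, and the fraction with 1 ribosome was the monosome RNA. Each mouse gave all kinds of RNA, and equal numbers were taken to mark the same mouse, so that 4 mice (WT 1, WT 2, Het 1 and Het 3) have both arrays. The deletion is carried in every tissue of the Het mice, and whole muscle also holds vessels, nerve, fat and blood, so that fewer cells of a type and less RNA per cell cannot be told apart.

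Density gradients sort RNA by the mass of what is bound to it. A message being translated steadily gathers several ribosomes and sinks into the polysome fractions, whereas a very short reading frame has room for few, and a message whose initiation is held back may carry 1. Messages of ribosomal proteins and of several translation factors begin with a C followed by a run of pyrimidines, the 5′ terminal oligopyrimidine (TOP) motif, through which mTOR signalling controls their loading. Messages encoded by mitochondrial DNA are translated inside the organelle by its own, smaller ribosomes, not by those in the cytosol. Eif6 binds the large ribosomal subunit and keeps it from joining the small one too early.

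Values below are log2 signals after quantile normalization, and a difference is polysome minus monosome on that scale, so 1 unit is a doubling relative to the rest of the array. A probe was tested where it was well above background on all polysome or on all monosome arrays. That held for 15116 probes under 12360 gene names, of which 10377 probes were above background on all 10 arrays. A probe or gene is called when the limma p adjusted over all tested probes by the Benjamini-Hochberg method is below 0.05. Genes are represented by their brightest tested probe. Errors of levels are SD over n = 6 polysome and n = 4 monosome arrays, and errors of differences are standard errors.

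The arrays were not equally bright. The 75th percentile of the signal ran from 24.1 to 106 on the polysome arrays and from 12.7 to 36.4 on the monosome arrays, and the mean log2 brightness was 1.35 higher in polysomes (5.89 ± 0.713 against 4.54 ± 0.665, two-sided exact permutation test, p = 0.0286 over 210 splits, of which the smallest possible p is 0.00476, and p = 0.0714 without WT monosome 2). Spots well above background made up 38.6% ± 4.69 of the polysome arrays and 30.7% ± 5.68 of the monosome arrays (two-sided exact permutation test, p = 0.0381). That difference kept a p below 0.05 when Het monosome 3, WT monosome 1 or WT polysome 2 was left out, and gave exact permutation p = 0.0556 to 0.119 when any other single array was. Brightness and fraction therefore move together here, and the part of brightness in the results was not tested beyond the fit with brightness as a term given below. A second measure, the balance of probes near the 5′ end against probes near the 3′ end of the same transcript (231 pairs at least 500 bases apart), set both gradient arrays of WT mouse 2 apart. It came to -0.38 for the polysome and 0.23 for the monosome array of that mouse, and the other 8 arrays lay between -1.71 and -1.37. Counts over the gene lists are therefore also given without these arrays. Correlations between monosome arrays ran from 0.686 to 0.977 with all 10 arrays and from 0.957 to 0.977 without them, while polysome and monosome arrays correlated at 0.892 to 0.936 without them. All 13 muscle-fibre markers were tested, and their mean signal of 13.3 to 14.1 on polysome and 12.6 to 13.4 on monosome arrays shows the labelled tissue's fibre messages in both fractions.

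**Figure D1:**
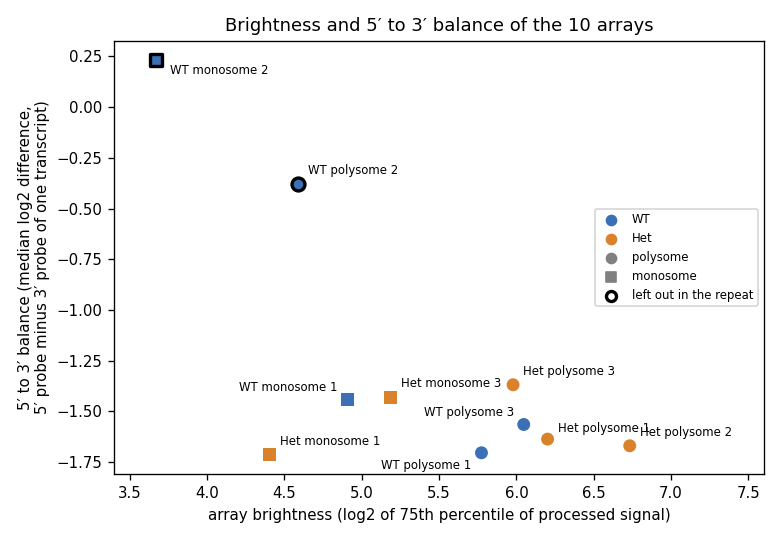
Each point is 1 array, with the log2 of its 75th percentile signal on the x axis and its 5′ to 3′ probe balance (log2) on the y axis, by genotype and fraction. WT polysome 2 at -0.38 and WT monosome 2 at 0.23 sit above the other 8 arrays, and the monosome arrays sit to the left of most polysome arrays.

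Each transcript was read by probes of 60 bases. The probes of 8 messages are shown here as examples of the groups described below, as the array carries them, 5′ to 3′, with their positions in mouse genome build mm9. The first 4 probe mitochondrial messages that were higher in monosomes: ATP8 (chrM:7870-7929), ND4L (chrM:10114-10173) and COX3 (chrM:9072-9131) on the plus strand, and ND6 (chrM:13552-13611), the one message read from the minus strand.
ATP8: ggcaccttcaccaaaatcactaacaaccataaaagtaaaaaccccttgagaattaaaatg
ND4L: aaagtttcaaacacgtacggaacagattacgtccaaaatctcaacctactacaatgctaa
COX3: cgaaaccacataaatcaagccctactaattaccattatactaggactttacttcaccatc
ND6: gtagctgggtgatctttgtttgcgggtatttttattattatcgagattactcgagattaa

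The other 4 probe nuclear messages that were higher in polysomes. Ckmt2 spans an exon junction on the minus strand (chr13:91993242-91995390), and Suclg1 (chr6:73221044-73221103), Ssb (chr2:69705550-69705609) and Psmd14 (chr2:61599058-61599117) lie on the plus strand.
Ckmt2: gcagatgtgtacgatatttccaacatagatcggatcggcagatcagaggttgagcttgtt
Suclg1: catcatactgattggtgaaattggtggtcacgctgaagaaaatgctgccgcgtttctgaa
Ssb: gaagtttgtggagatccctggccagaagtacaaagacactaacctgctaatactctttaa
Psmd14: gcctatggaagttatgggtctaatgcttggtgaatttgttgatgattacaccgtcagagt

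Eif6, the gene with 1 functional copy in the Het mice, was read first. Its signal was 7.82 and 8.06 on the Het monosome arrays and 9.36 and 10.16 on the WT monosome arrays. In polysomes it was 9.12, 8.98 and 8.87 in Het and 10.25, 10.71 and 9.95 in WT. Every Het array was below every WT array of the same fraction. Eif6 messages were themselves higher in polysomes by 0.80 ± 0.25 (adjusted p = 0.0466), and by 0.94 without WT mouse 2 (adjusted p = 0.00151), although the fractions overlapped, with WT monosome 2 above WT polysome 3. A second Eif6 probe gave 0.88 and was not called (adjusted p = 0.0601).

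Across the array the fractions differed widely. Of the 15116 probes, 3228 (21.4%) were called, 2115 higher in polysomes (14%) and 1113 higher in monosomes (7.36%). Without the arrays of WT mouse 2 the count was 7881 (52.1%), with 4504 (29.8%) higher in polysomes and 3377 (22.3%) higher in monosomes, and 3226 of the 3228 were called again in the same direction. Counted by gene, 2670 of 12360 (21.6%) were called, or 6404 (51.8%) without WT mouse 2. Of the genes, 1779 (14.4%) were called higher in polysomes and 891 (7.21%) higher in monosomes with all 10 arrays, against 3706 (30%) and 2698 (21.8%) without WT mouse 2. The median difference over all genes was 0.16, or 0.06 without WT mouse 2. Its sign depended on the filter: over probes it was -0.06 for those well above background on all 10 arrays, where 55.8% of calls were higher in polysomes, and -0.02 with no filter, where 71.2% were, against 65.5% with the filter used here. All polysome arrays lay above all monosome arrays for 11% of genes, and the reverse held for 3.58%, against 24.2% and 16.2% without WT mouse 2. With mouse as a random block, which uses the pairing of the 4 mice, 5716 probes were called. The count rested on single arrays: it was 881 without Het monosome 3, 1261 without Het monosome 1, 1457 without Het polysome 1, 1722 without Het polysome 2, 1861 without WT polysome 3 and 5522 without WT monosome 2. With brightness as a term 384 probes were called, 77.9% of them higher in polysomes against 65.5% in the fit without it. Both slides held both fractions and genotypes. With slide as a term 3421 probes were called, but the 5 arrays of either slide alone gave 0 calls by limma.

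The genotypes were compared with each other in the same model. Among Het arrays 976 probes (6.46%) were called, 655 higher in polysomes (4.33%) and 321 higher in monosomes (2.12%), and 4165 were called with mouse as a random block but 0 with mouse as a fixed term. The Het count was 0 without Het monosome 1, without any 1 of the Het polysome arrays, without WT polysome 1 and without WT polysome 3, was 7 without Het monosome 3, and was 3731 without either WT monosome array. Among WT arrays limma called 0 probes (0%), with 4463 at an unadjusted p below 0.05 and a smallest adjusted p of 0.0745, but 529 without WT monosome 2, 7149 without WT monosome 1, 1687 without WT mouse 2 and 5307 with mouse as a random block, although again 0 with mouse as a fixed term. The fits without either WT monosome array or without WT mouse 2 leave 1 WT monosome array, which is assumed to vary like the other groups. Those without either Het monosome array leave 1 Het monosome array under the same assumption. The genotype by fraction interaction called 0 probes (0%), with 554 at an unadjusted p below 0.05 and a smallest adjusted p of 0.733. It called 1 probe without WT mouse 2, but 4737 without WT monosome 1, a fit that leaves WT monosome 2 as the only WT monosome array and assumes that it varies like the others. Across probes, differences in WT and in Het correlated at r = 0.563, a description over probes that are not independent. All 3228 called probes (100%) had the same sign in both genotypes, a share that the shared fit partly fixes.

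**Figure D2:**
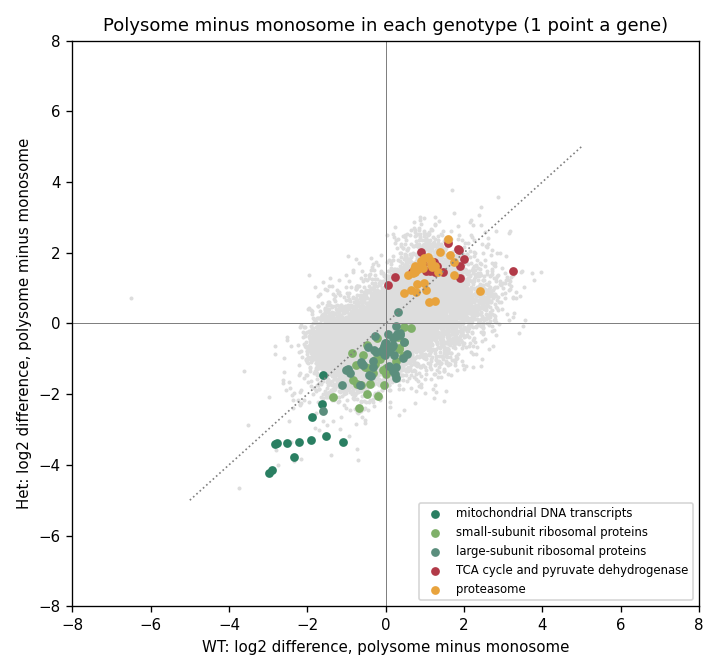
Each point is 1 gene, with its log2 polysome minus monosome difference in WT mice on the x axis and in Het mice on the y axis, and the dotted line marks equality. Mitochondrial DNA transcripts lie below 0 in both genotypes (medians -2.22 in WT and -3.36 in Het), while tricarboxylic acid (TCA) cycle and proteasome genes lie above 0 in both.

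Transcripts of mitochondrial DNA stood furthest on the monosome side. All 13 protein-coding messages of the organelle were tested and all 13 had a negative difference, from -3.61 to -1.52 with a median of -2.79 against 0.16 for all genes. Of the 13, 11 were called higher in monosomes, against 7.21% of all genes. All 13 were without WT mouse 2, against 21.8% of all genes, and the median there was -3.35. The 2 not called with all arrays were CYTB, the cytochrome of complex III (-2.36 ± 0.93, adjusted p = 0.0878), and ND4 of complex I (-2.22 ± 0.96, adjusted p = 0.111).

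ATP8, a small subunit of ATP synthase, had signals of 13.31 and 14.33 on the Het monosome arrays and 12.75 and 8.92 on the WT ones. Its polysome signals ran from 7.33 through a median of 9.02 to 9.88. The first 3 monosome arrays exceeded every polysome array, while WT monosome 2 lay among them. The difference was -3.61 ± 0.69 (adjusted p = 0.00921), and -4.38 without WT mouse 2 (adjusted p = 0.000112). ATP6, which is read from the same bicistronic message, differed by -3.52 ± 0.80 (adjusted p = 0.0164).

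ND4L, a core subunit of complex I, read 16.55 and 16.83 on Het and 16.39 and 14.05 on WT monosome arrays. Its polysome signals were 11.65 at the lowest, 13.14 at the median and 13.54 at the highest. The fractions did not overlap, though WT monosome 2 was the lowest of its group by a wide gap. The difference was -3.11 ± 0.45 (adjusted p = 0.00477).

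COX3, a catalytic-core subunit of cytochrome oxidase, read 17.13 and 17.21 on Het and 16.44 and 13.20 on WT monosome arrays, against polysome signals from 10.36 through 13.56 to 13.97. Again only WT monosome 2 overlapped the polysome arrays. The difference was -3.07 ± 0.68 (adjusted p = 0.0149). Its companions COX1 and COX2 differed by -1.96 ± 0.51 (adjusted p = 0.0247) and -2.26 ± 0.70 (adjusted p = 0.045).

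The remaining complex I subunits behaved alike in sign. ND5 differed by -2.96, ND1 by -2.79 and ND2 by -2.60, all called. ND6, which the opposite strand encodes, had the smallest difference of the 13. Its signals were 8.35 and 8.83 on Het and 9.80 and 8.03 on WT monosome arrays, and ran from 6.54 through 7.18 to 7.80 in polysomes. No polysome array reached the monosome values, and the difference was -1.52 ± 0.37 (adjusted p = 0.0199), although it was not called with mouse as a fixed term (adjusted p = 0.0551). The ND3 probe (-3.06, adjusted p = 0.0349) is placed by the files on chromosome 1 at 24619613 to 24619672, a nuclear position, so copies of mitochondrial sequence in the nucleus cannot be told apart from the organelle's own message there.

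By array, the median over the 13 was 16.02 and 16.11 on the Het monosome arrays and 15.22 and 10.58 on the WT ones, against 12.66, 12.99 and 12.21 on the Het and 10.81, 8.76 and 11.68 on the WT polysome arrays. Both arrays of WT mouse 2 were the lowest of their fraction. The median difference was -3.98 on slide 1, -1.50 on slide 2, which holds WT monosome 2, and -4.99 with brightness as a term.

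**Figure D3:**
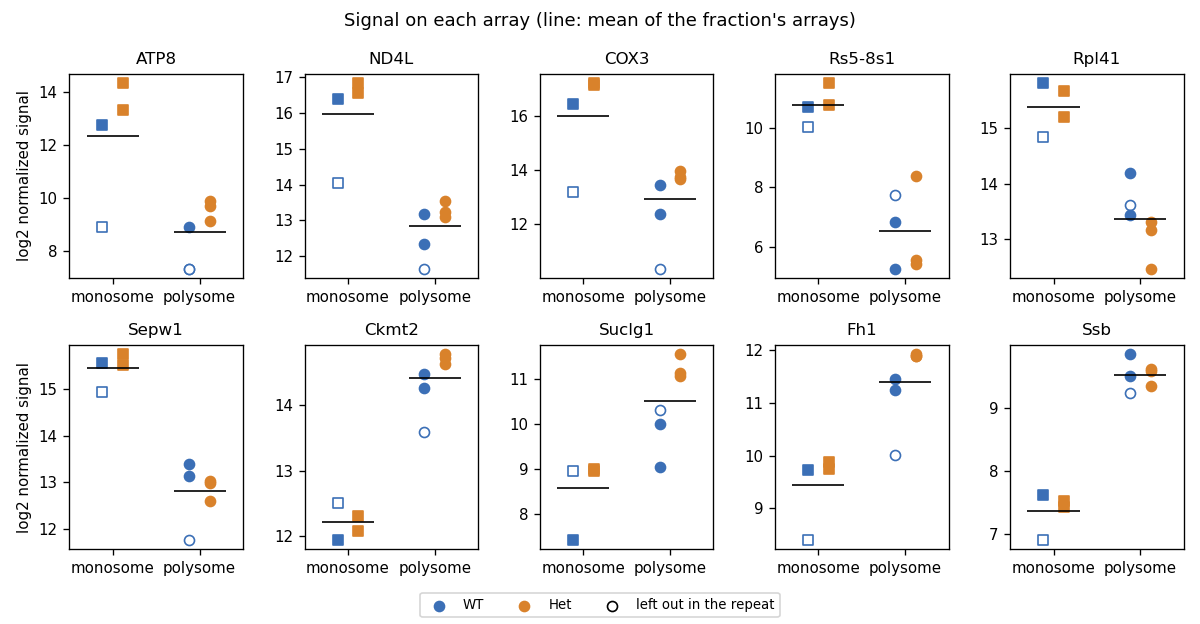
Each panel shows the log2 normalized signal of 1 gene on the 4 monosome (left) and 6 polysome (right) arrays, by genotype, with a line at the mean of each fraction and open points for the arrays of WT mouse 2. ATP8, ND4L, COX3, Rs5-8s1, Rpl41 and Sepw1 were higher in monosomes, and Ckmt2, Suclg1, Fh1 and Ssb were higher in polysomes.

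Ribosomal and nuclear non-coding RNAs were also on the monosome side. The largest difference among the named genes was that of Rs5-8s1, 5.8S ribosomal RNA, a structural part of the large subunit. It read 10.75, 11.50, 10.70 and 10.04 on Het 1, Het 3, WT 1 and WT 2 of the monosome arrays, and from 5.28 through 6.20 to 8.39 on the polysome arrays. Every monosome array exceeded every polysome array, and the difference was -4.20 ± 0.65 (adjusted p = 0.00486). Of 23 nuclear or structural non-coding RNAs listed, 11 had a probe and 7 were tested, 1 of which passed only through its monosome signal. All 7 were negative with a median of -1.25, and 3 were called. They were Rnu3b1, a U3 RNA that guides processing of pre-ribosomal RNA in the nucleolus (-3.19 ± 0.39, adjusted p = 0.00397), the imprinted long non-coding RNA Meg3 (-1.98 ± 0.37, adjusted p = 0.00851) and Neat1, the scaffold of paraspeckles (-1.70 ± 0.42, adjusted p = 0.0215). Rnu12, of the minor spliceosome, was the nearest to 0 (-0.54, adjusted p = 0.147). There were 4 called without WT mouse 2, with a median of -0.80. Over all genes, 7.21% were called higher in monosomes with all arrays and 21.8% without WT mouse 2. By transcript class, the median difference was 0.40 over 10278 probes of RefSeq messenger RNAs, -0.44 over 220 of RefSeq non-coding RNAs and -0.68 over 1985 of long intergenic loci named by position, where 12.5% were called higher in monosomes and 3.32% higher in polysomes.

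Messages of cytosolic ribosomal proteins leaned to the monosome fraction, and how many were called depended on WT mouse 2. Of 34 small-subunit messages, 32 had a negative difference and 6 were called higher in monosomes with all arrays, against 31 of 34 without WT mouse 2. Their median was -0.70, and -1.13 without that mouse. Of 46 large-subunit messages, 42 were negative and 5 were called, against 37 without WT mouse 2, and the median moved from -0.45 to -0.83. Of all genes, 7.21% were called higher in monosomes with all arrays, a share that the 5 large-subunit calls were near, and 21.8% without WT mouse 2. None of these messages was called higher in polysomes in either fit, where 14.4% and 30% of all genes were. By genotype the medians were -0.21 in WT and -1.16 in Het for the small and 0.00 in WT and -0.84 in Het for the large subunit, a difference that the interaction test did not call for any probe. By slide they were -1.09 and -0.40 for the small and -0.97 and -0.09 for the large subunit.

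The lowest members were Rpl41 and Rpsa. Rpl41, whose message encodes one of the shortest proteins known, read 15.68, 15.21, 15.82 and 14.84 on Het 1, Het 3, WT 1 and WT 2 of the monosome arrays, and from 12.46 through 13.36 to 14.19 in polysomes. There was no overlap between the fractions, and the difference was -2.03 ± 0.32 (adjusted p = 0.00491). Rpsa, a small-subunit protein that also serves as a laminin receptor precursor, read 15.21, 14.92, 15.64 and 13.14 in the same order and from 12.64 through 13.04 to 13.46 in polysomes. All monosome arrays but WT 2 exceeded every polysome array, and the difference was -1.71 ± 0.43 (adjusted p = 0.0231). Other small-subunit messages called included Rps19 (-1.23), Rps28 (-1.19), Rps4x (-0.96) and Rps15 (-0.85). Large-subunit ones included Rplp0, the base of the ribosomal stalk (-1.43), Rpl37a (-1.16) and Rpl13 (-1.15). Rpl27 lay at the other end, at 0.32 ± 0.19 (adjusted p = 0.216), with Rps27a at 0.25 (adjusted p = 0.671), or -0.23 without WT mouse 2. Many of these genes have processed pseudogenes, and a probe cannot separate their transcripts.

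TOP-like starts were read from RefSeq's promoter sequences around each annotated start, in build GRCm38.p6. The 30-base windows of 5 ribosomal protein genes are shown because they carry a TOP-like start, which a minority of the ribosomal protein genes had in these sequences, and the 5 were chosen as the lowest differences without WT mouse 2 among those that had it, with the run of pyrimidines at the start in capitals. They lie at chr16:33056472-33056501 (Rpl35a), chr7:141447641-141447670 (Rplp2), chr3:90213629-90213658 (Rps27, minus strand), chr2:180257369-180257398 (Rps21) and chr11:48800350-48800379 (Rack1, called Gnb2l1 on the array).
Rpl35a: gcttgccttcCTCTTTCCgccatcttggcg
Rplp2: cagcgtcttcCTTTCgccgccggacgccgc
Rps27: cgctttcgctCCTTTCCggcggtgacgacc
Rps21: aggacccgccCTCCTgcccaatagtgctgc
Rack1: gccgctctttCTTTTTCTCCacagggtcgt

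A start of C and then 4 pyrimidines, on the gene's own strand, stood at the annotated start of 823 of 32851 promoters (2.51%), and of 15 of the 59 tested ribosomal protein genes with a promoter sequence. Of these 15, 0 were called by limma with all arrays and 14 were called higher in monosomes without WT mouse 2, and their median difference was -0.53, or -0.91 without that mouse. All 59 had the same median of -0.53, or -0.92 without WT mouse 2, with 9 called higher in monosomes with all arrays and 49 without it. The 5 shown were the lowest of them, with differences without WT mouse 2 of -1.20 (Rpl35a), -1.33 (Rplp2), -1.55 (Rps27), -1.52 (Rps21) and -1.28 (Rack1). The other 212 tested genes with such a start had a median of 0.38 against 0.36 for all 7197 tested genes with a promoter sequence, with 37 called higher in polysomes and 14 higher in monosomes, or 79 and 37 without WT mouse 2. Of the 7197, 1198 and 412 were called with all arrays, and 2544 and 1165 without WT mouse 2. An annotated start can lie some bases from the one used in muscle.

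Among 17 elongation factors and other messages of the TOP class, 4 were called higher in monosomes and 1 higher in polysomes, with a median of -0.12. Of the 17, 2 passed only through their polysome signal. Without WT mouse 2 there were 8 and 2, with a median of -0.41. The shares of all genes were 7.21% higher in monosomes and 14.4% higher in polysomes, or 21.8% and 30% without WT mouse 2. Eef2, which moves the ribosome along by 1 codon, read 13.11 and 13.68 on Het and 13.50 and 13.61 on WT monosome arrays, and from 11.69 through 11.88 to 12.25 in polysomes. The groups were well apart and narrow, and the difference was -1.57 ± 0.21 (adjusted p = 0.00397). The other 3 were Pabpc1, the cytoplasmic poly(A)-binding protein (-1.50 ± 0.39, adjusted p = 0.0239), Eif3f, a subunit of the initiation factor that loads the small subunit (-1.28 ± 0.25, adjusted p = 0.00972), and Eif4b, a cofactor of the cap-side helicase (-1.19 ± 0.20, adjusted p = 0.00564). Eef1d, which recharges elongation factor 1A, went the other way (0.82 ± 0.18, adjusted p = 0.0153), and Naca was at 0.84 and not called (adjusted p = 0.0528). The sign of the median was not stable: it was 0.30 on slide 2 and 0.17 without WT monosome 1.

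Messages of very short proteins gave calls in both directions. Of 21 messages tested, 13 were negative, 3 were called higher in monosomes and 1 higher in polysomes, with a median of -0.11, or 7 and 1 without WT mouse 2 with a median of -0.42. Of all genes 7.21% were called higher in monosomes and 14.4% higher in polysomes. The list median was -0.74 in Het, with 5 called higher in monosomes, and 0.49 in WT, and it turned to 0.027 over both genotypes without Het polysome 3. Sepw1, a small selenoprotein abundant in muscle, read 15.52, 15.74, 15.56 and 14.94 on Het 1, Het 3, WT 1 and WT 2 of the monosome arrays and from 11.77 through 13.01 to 13.40 in polysomes. The groups did not overlap, and the difference was -2.62 ± 0.33 (adjusted p = 0.00397). The others called were Rpl41, described above, and Ost4, a subunit of the oligosaccharyl transferase (-1.46 ± 0.30, adjusted p = 0.0112), with Mrpl36 on the polysome side (0.76 ± 0.23, adjusted p = 0.0423). Cox8b and Atp5e, small subunits of cytochrome oxidase and ATP synthase, were at -0.84 and -0.98 and were not called with all arrays (adjusted p = 0.0819 and 0.0797). None of the remaining 15 was called with all arrays. On the monosome side were Myeov2 (-0.62), Rpl39 (-0.59), Tmsb10 (-0.50), Tomm7 (-0.26), Tmem258 (-0.12), the metallothionein Mt1 (-0.11), sarcolipin, Sln (-0.096), and Cox7c (-0.023). On the polysome side were Mt2 (0.18), Ndufa1 (0.26), Sec61g (0.44), 2310015B20Rik (0.44), thymosin beta 4, Tmsb4x (0.50), Uqcr11 (0.53) and Cox6c (0.59). The values without WT mouse 2 were -1.27 for Rpl39, -1.03 for Myeov2, -0.60 for Tomm7, 0.34 for Uqcr11 and 0.026 for Cox6c.

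On the polysome side, the enzymes of the TCA cycle and of pyruvate dehydrogenase, which feed carbon into mitochondrial respiration, led the lists. Of 20 listed genes 19 were tested, 3 of them only through their polysome signal. All 19 were positive, from 0.58 to 2.37 with a median of 1.46, and 14 were called. Without WT mouse 2 all 19 were called, with a median of 1.37. Of all genes, 14.4% were called higher in polysomes with all arrays and 30% without WT mouse 2. The medians by slide were 0.92 and 1.80, and the median was 0.76 with brightness as a term.

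Suclg1, the alpha subunit of succinate-CoA ligase, read 8.96 and 9.01 on Het and 7.42 and 8.95 on WT monosome arrays, and from 9.04 through 10.70 to 11.55 in polysomes. The groups touched without overlapping, and the difference was 1.93 ± 0.36 (adjusted p = 0.00842). Fh1, fumarase, read 9.88, 9.75, 9.73 and 8.40 on Het 1, Het 3, WT 1 and WT 2 of the monosome arrays, and from 10.02 through 11.67 to 11.93 in polysomes. Both arrays of WT mouse 2 were the lowest of their fraction, and the difference was 1.97 ± 0.34 (adjusted p = 0.00664), with a second probe at 2.20.

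Mdh1, the cytosolic malate dehydrogenase of the malate-aspartate shuttle, showed the same pattern. It read 10.61, 10.37, 10.43 and 9.42 in monosomes in the same order and from 11.01 through 12.37 to 12.63 in polysomes. The groups did not overlap, and the difference was 1.97 ± 0.30 (adjusted p = 0.00486). Sucla2, the partner of Suclg1, differed by 1.91, Idh3a of isocitrate dehydrogenase by 1.26, citrate synthase (Cs) by 1.36 and Sdha of succinate dehydrogenase by 1.31, all called. The 5 not called included Pdhx (2.37, adjusted p = 0.0817), Pdha1 (1.76, adjusted p = 0.0654) and Dlat (1.59, adjusted p = 0.0662) of the pyruvate dehydrogenase complex, and Ogdh (0.78, adjusted p = 0.0702). The value of Pdhx rested on WT monosome 2, where it read 1.51 against 7.03 to 7.21 on the other monosome arrays, and it was 1.34 without WT mouse 2 (adjusted p = 0.000295). With brightness as a term Pdhx was at -0.017, Pdha1 at -0.29 and Dlat at -0.039.

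Subunits of the proteasome, which degrades ubiquitin-tagged proteins, also lay on the polysome side. All 31 were tested, 2 of them only through their polysome signal, and all 31 were positive, from 0.66 to 1.79 without Psmd14, for which only a bound can be given, with a median of 1.26. With all arrays 24 were called higher in polysomes, against 14.4% of all genes. Without WT mouse 2 all 31 were, against 30% of all genes, with a median of 1.39. The list mean ran from 10.4 to 10.8 on polysome and from 9.27 to 9.39 on monosome arrays, so that the fractions were far apart on this measure. The median was 1.23 on slide 1 and 1.25 on slide 2, and 1.33 with brightness as a term. All polysome arrays lay above all monosome arrays for 18 members, and for 28 without WT mouse 2, against 11% and 24.2% of all genes.

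Among the named members, the lid subunit Psmd6 differed by 1.79 ± 0.21 (adjusted p = 0.00397), the base ATPase Psmc5 by 1.70 ± 0.23 (adjusted p = 0.00397), the core subunit Psmb6 by 1.38 ± 0.23 (adjusted p = 0.00595) and Psma1 by 1.57 ± 0.46 (adjusted p = 0.0369). Psmd14, the lid's deubiquitinase, was not well above background on any monosome array, where its probe read 3.89, 3.94, 2.89 and 5.43 on Het 1, Het 3, WT 1 and WT 2. It passed the filter only by its polysome signal, which favours its call (adjusted p = 0.0235). In polysomes it read from 4.98 through 6.17 to 6.82, which makes it at least 3.04-fold higher there. Such a bound sets the mean of the bright fraction against the higher, on each dim array, of the lowest signal well above background and the probe's own. Psmb1 was the smallest, at 0.66 ± 0.27 (adjusted p = 0.0958).

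**Figure D4:**
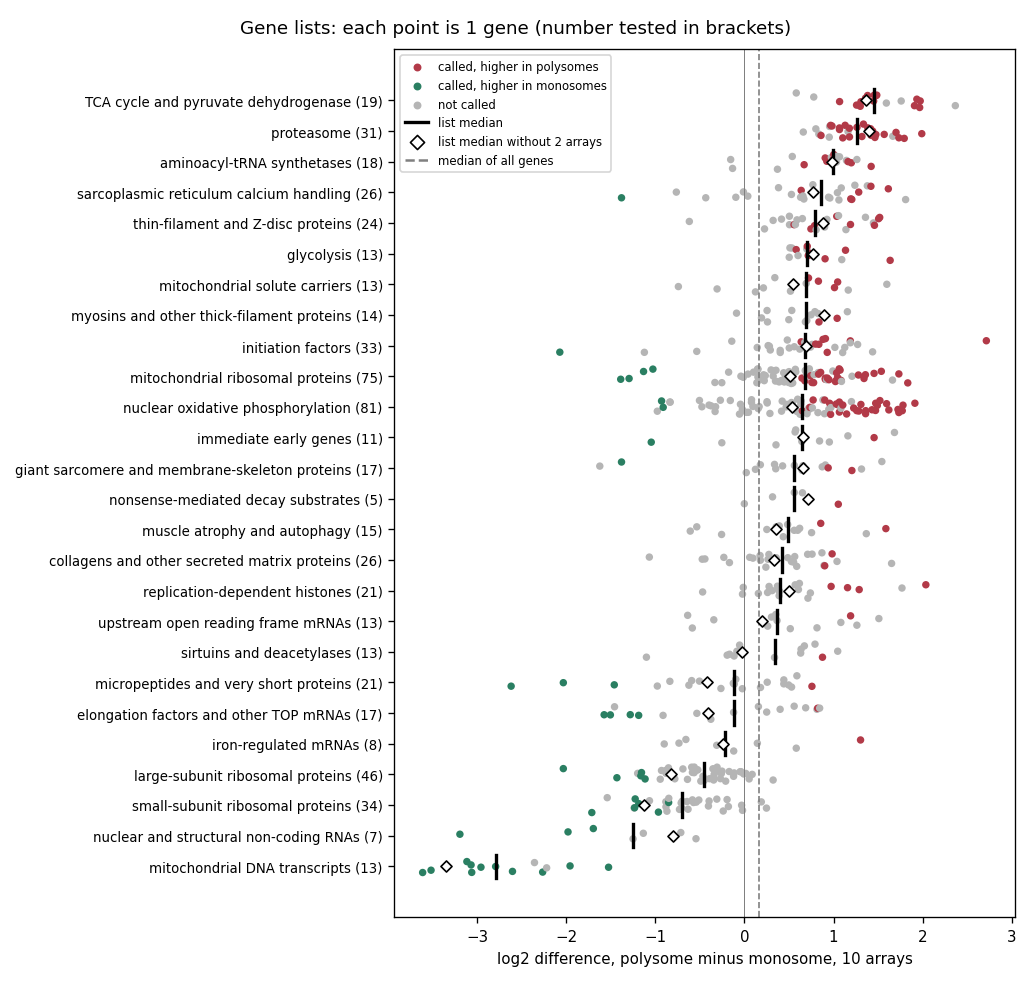
Each point is the log2 polysome minus monosome difference of 1 gene over 10 arrays, coloured where called, with a bar at each list's median, a diamond at its median without WT mouse 2, and a dashed line at 0.16, the median of all genes. Mitochondrial DNA transcripts are at the bottom with a median of -2.79, and TCA cycle genes at the top with 1.46, next to the proteasome with 1.26.

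Nuclear genes of oxidative phosphorylation stood opposite to the mitochondrial genes whose products they join in the same complexes. Of 81 tested, 65 were positive, 30 were called higher in polysomes and 2 higher in monosomes, with a median of 0.65. Without WT mouse 2 there were 42 and 7, with a median of 0.54. The shares of all genes were 14.4% and 7.21%, or 30% and 21.8% without WT mouse 2. By genotype the list median was 0.91 in WT and 0.36 in Het, a difference that the interaction test did not call for any probe. Cytochrome c, Cycs, had the largest difference (1.91 ± 0.48, adjusted p = 0.0223). In complex III, the core subunit Uqcrc1 differed by 1.62 and the iron-sulfur subunit Uqcrfs1 by 1.78. In complex I, Ndufv1 differed by 1.72 and Ndufs1 by 1.60. In complex II, Sdhb differed by 0.77, and in ATP synthase, Atp5a1 and Atp5b, the catalytic head, differed by 1.47 and 1.06, all called. The 2 on the monosome side were the complex I subunits Ndufv3 (-0.93 ± 0.30, adjusted p = 0.0487) and Ndufa3 (-0.91 ± 0.25, adjusted p = 0.0301).

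Proteins of the mitochondrial ribosome are made in the cytosol, and their messages lay mostly on the polysome side. Of 75 tested, 10 of them only through their polysome signal, 66 were positive, 26 were called higher in polysomes and 4 higher in monosomes, with a median of 0.68. Without WT mouse 2 there were 42 and 6, with a median of 0.51. The shares of all genes were 14.4% and 7.21%, or 30% and 21.8% without WT mouse 2. Mrps22 (1.83 ± 0.43, adjusted p = 0.0175), Mrps9 (1.73), Mrpl21 (1.54) and Mrpl1 (1.45) were the highest called. The 4 on the monosome side were Mrps24 (-1.39), Mrpl42 (-1.29), Mrpl30 (-1.13) and Mrpl54 (-1.03). Of 13 mitochondrial solute carriers tested, 5 of them only through their polysome signal, 4 were called higher in polysomes (7, with 2 higher in monosomes, without WT mouse 2), namely the adenine nucleotide carrier Slc25a4 (1.05), the phosphate carrier Slc25a3 (1.01), the aspartate-glutamate carrier Slc25a12 (0.83) and the oxoglutarate carrier Slc25a11 (0.72). Slc25a5 had a larger value and was not called (1.60, adjusted p = 0.0553). The iron carrier Slc25a37 was the lowest, at -0.74 (adjusted p = 0.366), and was called without WT mouse 2 (-1.38, adjusted p = 0.00191).

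All 13 tested glycolytic genes were positive, from 0.50 to 1.64 with a median of 0.71. With all arrays 7 were called, and all 13 without WT mouse 2, against 14.4% and 30% of all genes called higher in polysomes. Ldhb, the heart-type lactate dehydrogenase, differed by 1.64 ± 0.28 (adjusted p = 0.0065), pyruvate kinase, Pkm, by 1.13, Pgk1 by 0.91 and Aldoa, the muscle aldolase, by 0.73. Gapdh was the lowest at 0.50 ± 0.19 and was not called (adjusted p = 0.0797). The files place its brightest probe on chromosome 7 at 59003199 to 59003257, away from the gene itself, so that transcripts of a copy cannot be told apart there. Its other probes ran from 0.36 to 1.54, and 3 of them were called.

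Aminoacyl-tRNA synthetases, which charge transfer RNAs, had a median of 0.999. Of 18 tested, 3 of them only through their polysome signal, 16 were positive, 8 were called higher in polysomes with all arrays and 15 without WT mouse 2, and none was called higher in monosomes. In these fits 14.4% and 30% of all genes were called higher in polysomes. Farsb was the lowest at -0.15 (adjusted p = 0.665). Mars differed by 1.42 ± 0.28 (adjusted p = 0.0104), Wars by 1.20 ± 0.18 (adjusted p = 0.00486) and Gars by 1.16 ± 0.18 (adjusted p = 0.00486).

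Initiation factors had a median of 0.68 over 33 tested, 5 of which passed only through their polysome signal. With all arrays 9 were called higher in polysomes and 1 higher in monosomes, against 19 and 1 without WT mouse 2. Over all genes the shares were 14.4% and 7.21%, or 30% and 21.8% without WT mouse 2. The scaffold Eif4g1 differed by 0.88, the helicase cofactor Eif4h by 1.19, Eif3c by 0.84 and the exchange factor subunit Eif2b1 by 0.93. Eif2b3 of the same complex was above background on all 6 polysome arrays and on no monosome array, which makes it at least 1.53-fold higher in polysomes. It passed the filter only by its polysome signal, which favours its call (adjusted p = 0.00329).

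Eif4ebp2, a repressor that holds the cap-binding protein, was the single member of this list called higher in monosomes. The initiation factors Eif3f (-1.28) and Eif4b (-1.19), counted above with the TOP messages and not in this list, were called higher in monosomes too. Eif4ebp2 read 10.69 and 11.10 on Het and 10.90 and 11.49 on WT monosome arrays, and from 8.58 through 8.82 to 9.54 in polysomes. The groups were well apart, and the difference was -2.07 ± 0.27 (adjusted p = 0.00397).

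The contractile and membrane machinery of the fibre was mostly positive. Of 24 thin-filament and Z-disc genes tested, 1 of them only through its polysome signal, 23 were positive and 8 were called, 17 without WT mouse 2, with a median of 0.80. Ldb3 (1.52 ± 0.34, adjusted p = 0.0152), Pdlim3 (1.51), Lmod2, which lengthens thin filaments (1.46), and the Z-disc cross-linker Actn2 (1.19) were the highest, and Tnnt3 (0.75) and Tpm1 (0.56) were called with smaller values. Actn3, its fast-fibre relative, was at -0.62 ± 0.37 (adjusted p = 0.22), or -0.38 without WT mouse 2. Of 14 thick-filament genes 2 were called, Mybph (1.04) and Myom2 (0.84), near the share of 14.4% of all genes, and 8 without WT mouse 2, with a median of 0.69. Myh4, the myosin of the fastest fibres, was the lowest at -0.088 (adjusted p = 0.845). Myl3 had the highest value and was not called (1.16, adjusted p = 0.0879).

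In calcium handling by the sarcoplasmic reticulum, 6 of 26 genes tested (4 only through their polysome signal) were called higher in polysomes and 1 higher in monosomes, or 16 and 1 without WT mouse 2, with a median of 0.86. Over all genes the shares were 14.4% and 7.21%, or 30% and 21.8% without WT mouse 2. The calcium buffers Casq1 (1.61 ± 0.40, adjusted p = 0.0217), Hrc (1.28) and Pvalb (0.64) and the coupling adaptor Stac3 (1.42) were among the former. The kinase Camk2d had the highest value and was not called (1.81, adjusted p = 0.237). It was at 0.64 without WT mouse 2 and at -1.41 with brightness as a term. Cacna1s, the voltage sensor of excitation-contraction coupling, was the exception. Its signal was 15.10 and 15.22 on Het and 15.12 and 15.47 on WT monosome arrays, and ran from 13.55 through 13.79 to 14.16 in polysomes. The groups did not overlap, and the difference was -1.38 ± 0.21 (adjusted p = 0.00486), with a second probe at -1.31 that was not called (adjusted p = 0.0662).

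Very long messages were read from 17 giant sarcomere and membrane-skeleton genes, 4 of them tested only through their polysome signal. With all arrays 2 were called higher in polysomes, nebulin, Neb (1.21 ± 0.34, adjusted p = 0.0322), and the nuclear-envelope linker Syne2 (0.94 ± 0.29, adjusted p = 0.0448), and 1, Cacna1s, was called higher in monosomes, with a median of 0.56, where 14.4% and 7.21% of all genes were called. Without WT mouse 2 there were 8 and 2, against 30% and 21.8% of all genes. Titin, Ttn, differed by 1.54 ± 0.55 by its brightest probe (adjusted p = 0.0684) and by -0.18, 0.61 and 0.43 by other probes of the same message, so probes of 1 transcript gave different values. With brightness as a term the brightest probe was at -0.13. Xirp2 was at -1.62 ± 0.82 (adjusted p = 0.158) and at -2.64 without WT mouse 2 (adjusted p = 0.000266). By their brightest probes none of the other 12 was called with all arrays, and all were positive. They included the ankyrins Ank2 (1.31) and Ank3 (0.91), the linkers Dst (0.87), Plec (0.65) and Macf1 (0.43), the calcium release channel Ryr1 (0.66), perlecan, Hspg2 (0.35), utrophin, Utrn (0.34), dystrophin, Dmd (0.18), filamin C, Flnc (0.12), and Synm (0.021), of which Dmd and Synm were at -0.0042 and -0.39, and Ank2 at 0.79, without WT mouse 2. Ank3 was above background on 1 of 4 monosome arrays, so its value is inexact. Other probes did not always follow: those of Dst were at 1.21 (called, adjusted p = 0.0117) and -0.70, and those of Synm ran from -0.69 to 0.017. Of the 2 genes called higher in polysomes, Syne2 had another probe at -0.22 (adjusted p = 0.869), or -0.84 without WT mouse 2. Neb had others at 0.99985 (adjusted p = 0.0532) and 0.28 (adjusted p = 0.705), neither of them called.

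Over 8425 messenger RNAs the distance of the probe from the 5′ end was almost unrelated to the difference (Spearman's rho 0.0585 across genes, and -0.00455 without WT mouse 2, a description over genes that share the same arrays). Probes in the first 500 bases, which include many short messages, had a lower median, -0.04 over 571 genes, against 0.35 to 0.47 in the bins that lead from there to 4000 bases. Further out it was 0.36 between 4000 and 8000 bases and 0.32 beyond, or 0.17 and 0.048 without WT mouse 2, so that the medians rose and then fell along the message. By GC content of the probe, the median fell from 0.63 at up to 35% GC to 0.14 between 50 and 55%, and from 0.30 to 0.23 in the same bins without WT mouse 2. Above 55% GC, over 61 probes, it was -0.29, or -0.14 without WT mouse 2.

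Beyond these lists, and among probes well above background on all 10 arrays, the called genes furthest on the polysome side began with Ckmt2, the mitochondrial creatine kinase of striated muscle. It read 12.31 and 12.08 on Het and 11.94 and 12.51 on WT monosome arrays, and from 13.59 through 14.55 to 14.78 in polysomes. The groups were more than 1 log2 unit apart, and the difference was 2.20 ± 0.25 (adjusted p = 0.00397). Ssb, the La protein that binds the ends of RNA polymerase III transcripts, read 7.53 and 7.43 on Het and 7.62 and 6.91 on WT monosome arrays, and from 9.23 through 9.54 to 9.84 in polysomes. The groups were again well apart, the difference was 2.14 ± 0.22 (adjusted p = 0.00361), and a second probe gave 1.57.

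Plin5, a lipid-droplet protein of oxidative tissue, read 6.96 and 6.40 on Het and 6.23 and 6.02 on WT monosome arrays, and from 7.57 through 8.62 to 8.92 in polysomes. No monosome array reached the polysome range, and the difference was 2.09 ± 0.27 (adjusted p = 0.00397). Fabp4, a fatty acid binding protein of adipocytes and capillaries (2.06 ± 0.50), the granule protein precursor Pcsk1n (1.99 ± 0.26) and the prohormone-processing enzyme Cpe (1.94 ± 0.60) completed the 10 highest with the TCA cycle genes and Cycs given above. On the monosome side, Cyp2r1, a vitamin D hydroxylase, completed the 10 lowest (-2.77 ± 0.44, adjusted p = 0.00499) with Rs5-8s1, Rnu3b1 and mitochondrial messages.

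The other fraction was not well above background on any array for 125 called probes that were well above it on all polysome arrays, and for 1 probe the other way round. Such probes entered the test only through the fraction where they are high, and the monosome arrays were the dimmer ones, so the 2 numbers do not compare the fractions. The largest bounds were at least 3.44-fold for Dnajc17, a nuclear co-chaperone, Psmd14 as above, and at least 2.79-fold for an unnamed probe on chromosome 8 at 99688735 to 99688794. The 1 monosome probe belongs to a non-coding locus on chromosome 10 and was at least 4.57-fold higher in monosomes, although another probe of that locus was above background on 4 of the 6 polysome arrays.

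The smaller groups are read against the same shares of all genes. With all arrays these were 14.4% higher in polysomes and 7.21% higher in monosomes, against 30% and 21.8% without WT mouse 2. Of 21 replication-dependent histone genes tested, 5 of them only through their polysome signal, 4 were called higher in polysomes (8 without WT mouse 2), namely Hist1h1a (at least 1.55-fold, since no monosome array was above background), Hist1h1c (1.29), Hist1h2bm (1.16) and Hist3h2a (0.97, or 0.62 without WT mouse 2), and the list median was 0.40. Hist1h4c was the lowest at -0.47 (adjusted p = 0.605), and at 1.81 with brightness as a term. Of 11 immediate early genes, 4 of them tested only through their polysome signal, Nr4a1 was called higher in polysomes (1.46 ± 0.26, adjusted p = 0.00791) and Fosb higher in monosomes (-1.05 ± 0.32, adjusted p = 0.0446), while Btg2 was at 1.68 and not called (adjusted p = 0.0664), and at 0.90 and called without WT mouse 2 (adjusted p = 0.0025). The counts were 5 and 1 without WT mouse 2. Of 8 iron-regulated messages, the transferrin receptor Tfrc was called (1.30 ± 0.36, adjusted p = 0.0295), and Epas1 was at -0.90 (adjusted p = 0.0941), with other probes at 0.67 and -0.02 and a value of 0.053 with brightness as a term, and without WT mouse 2 there were 2 called in each direction. Of 13 messages with upstream reading frames, 5 of them tested only through their polysome signal, Cebpa was called higher in polysomes (1.19, adjusted p = 0.0263), with 1 of 4 monosome arrays above background, and Atf5 was the lowest at -0.64 (adjusted p = 0.0639), with 2 called in each direction without WT mouse 2. Ifrd1 was at 1.51 and not called (adjusted p = 0.269), at 0.51 without WT mouse 2, whose monosome array read 2.41 against 7.98 to 8.37 on the others, and at -1.40 with brightness as a term.

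Secreted matrix proteins, which are made on membrane-bound ribosomes, gave 2 of 26 called higher in polysomes, decorin, Dcn (0.90), and laminin alpha 2, Lama2 (0.98), with a median of 0.42. Of the 26, 5 passed only through their polysome signal, and without WT mouse 2 there were 11 called higher in polysomes and 1 higher in monosomes. Bgn was the lowest at -1.07 (adjusted p = 0.0874) and stood at 0.0059 with brightness as a term. Lum had the highest value and was not called (1.65, adjusted p = 0.293, and 0.56 without WT mouse 2), and it was at -1.54 with brightness as a term. Of 15 genes of atrophy and autophagy, the ubiquitin ligase Trim63 (0.86) and the autophagy receptor Sqstm1 (1.59) were called, against 6 without WT mouse 2, and 2 of the 15 passed only through their polysome signal. Map1lc3a, a coat protein of autophagosomes, was the lowest at -0.61 (adjusted p = 0.156). Of 13 sirtuins and deacetylases only Sirt4 was called (0.88, adjusted p = 0.0217), and Sirt6 was the lowest at -1.10 (adjusted p = 0.084), or -0.64 without WT mouse 2 (adjusted p = 0.0782), with 4 called without WT mouse 2 and 3 of the 13 tested only through their polysome signal. Hdac1 was at 1.05 by its brightest probe and not called (adjusted p = 0.15), at 0.49 without WT mouse 2 and at -0.26 with brightness as a term. Its other probes were at 0.33 and, called, at 0.91 (adjusted p = 0.0385). Of 5 host genes of small nucleolar RNAs and substrates of nonsense-mediated decay that were tested, 2 of them only through their polysome signal, Cdkn1a was called (1.05), and 2 were without WT mouse 2, with Bbc3 the lowest at -0.00097 (adjusted p = 0.998).

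Markers of other cell types were read on the same arrays and against the same shares of all genes. Of 5 adipocyte markers tested of 6 listed, 3 were called higher in polysomes, namely Cfd (1.80), Adipoq (1.61) and Retn (1.05), or 4 without WT mouse 2. Plin1, which coats fat droplets, was at -0.41 (adjusted p = 0.379) and at 0.036 without WT mouse 2. The list mean ran from 8.35 to 9.32 on polysome and from 7.28 to 8.38 on monosome arrays. Fabp4 and Cpe above moved in the same direction, and the part of adipose tissue in those values was not tested. Of 3 endothelial markers tested, Cdh5 was called higher in polysomes (1.07), while Kdr was at -0.84 (adjusted p = 0.266) by its brightest probe but at 0.52 by another (adjusted p = 0.0962, and 0.47 with adjusted p = 0.0276 without WT mouse 2), and Pecam1 at -0.62 (adjusted p = 0.261), with a list median of -0.62, and 1 was called without WT mouse 2. With brightness as a term the list median turned to 0.38, with Kdr at 0.52 and Pecam1 at 0.35. Fibroblast markers gave Dcn (1 of 6, and 3 without WT mouse 2), and blood cells (6 tested), immune cells (5) and Schwann cells (3) gave 0 called by limma with all arrays and 1, 2 and 3 without WT mouse 2. Extremes of these lists included Lum and Col1a2 of fibroblasts (1.65 and -0.44), Hbb-bt and Hba-a2 of red cells (0.32 and -0.81) and Cd74 and Cd3e of immune cells (0.93 and -0.72). Of the muscle-fibre markers, Pvalb and Tnnt3 were called (10 of 13 without WT mouse 2), and Tnni1, of slow fibres, had the highest value (1.45, adjusted p = 0.0981).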

How the data were processed

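RNA was hybridised in 1 colour (Cy3) to Agilent mouse arrays with probes of 60 bases. The authors deposited scanner files with spot intensities, made with Agilent Feature Extraction 11.0.1.1 per the file headers and placed on mm9, together with a table of log2 values that ranked as the raw median signal did (Spearman 1). Feature Extraction had subtracted background and detrended the processed intensity used here. From it, spots marked as outliers (0.26 to 0.363% per array) were left out, log2 signals were averaged per probe name and quantile-normalized over all 16 arrays, and a model of genotype and fraction was fitted with limma 3.58.1 in R 4.3.3, with Benjamini-Hochberg adjustment. 18 probes with a missing value were left out, and no spot was saturated. Quantile normalization makes each difference relative to the whole array. Array numbers, not counts, limit the precision. The series design states that each mouse gave all kinds of RNA. That equal numbers mark the same mouse was taken from this and from the data, where deviations from group means correlated at 0.682 and 0.687 (WT 1 and 2) and 0.453 and 0.432 (Het 1 and 3), so the numbers were used to pair the arrays. The series design states that monosome arrays entered no analysis of the study. Monosome RNA of WT 3 and Het 2 was not analysed here.

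Members and gene lists were chosen with earlier results of these data known. Named are Eif6, the 10 highest and 10 lowest called genes above background on all arrays with 1 sign in the 4 paired mice, the highest and lowest members of each list, the called ones where they were 5 or fewer, all members of the lists of very short and giant proteins, further called members chosen after their values were seen, and the largest bounds. A few genes that the rule names are not reported here. RefSeq accessions were given for 10881 tested probes, and the gene table held 10462 of them. On simulated data with 15116 probes, the fit recovered 70% and 60% of probes raised or lowered by 2 log2 units and 12% and 6% at 1 unit, with 4 false calls. Each of these settings changed 50 probes, far fewer than were called in the data. The simulated noise was independent between arrays, without correlation within a mouse or shifts of whole arrays, so these rates may not hold for the real arrays. Figures used matplotlib 3.10.9. Alternatives were other normalizations, filters, blocks, covariates and left-out arrays.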

Additional observations from a re-analysis of the deposited data

Results flagged for a closer look

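In groups of 4 or 6 arrays, 44 sets of values were examined for an array far from the rest, and 7 were marked. Chance alone marks about 1 in 20 of independent sets, a rate that cannot be applied here. The sets share the same arrays and include genes chosen from these data. Both arrays of WT mouse 2 had been singled out for their balance beforehand. The 5′ to 3′ balance was -0.38 on WT polysome 2, against -1.70 to -1.37 on the other polysome arrays, and 0.23 on WT monosome 2, against -1.71 to -1.43. Fh1 was lowest on the same arrays, at 10.02 on WT polysome 2 (others 11.24 to 11.93) and 8.40 on WT monosome 2 (others 9.73 to 9.88). Mdh1 was at 11.01 on WT polysome 2 (others 12.12 to 12.63), and ND4L at 14.05 on WT monosome 2 (others 16.39 to 16.83). Suclg1 was at 7.42 on WT monosome 1, where the other monosome arrays read 8.95 to 9.01.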

How the results depend on the processing

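Signs held far more often than calls. Of the values of named genes under alternatives, 3877 kept their direction and side of the threshold, 859 lost the call, 208 gained it and 99 reversed. The count of 3228 called probes was within 1.5 times of itself under other normalizations, the authors' table, other filters, slide as a term, mouse as a fixed term (2298, a replicate block), no genotype term and the methods' t-test (2466 at the methods' threshold of an absolute log2 difference above 1 and an unadjusted p below 0.05, and 2206 after Benjamini-Hochberg adjustment). It was 7881 without both arrays of WT mouse 2, 5716 with mouse as a random block, 5138 with all 16 arrays sharing the spread, 7275 with the 5′ to 3′ balance as a term, 384 with brightness as a term and 0 on either slide alone, where 5 arrays remain. Leaving out 1 array gave 881 to 5522. The WT count of 0 was 169 after normexp, 58 from the authors' table, 352 with no filter, 1687 without WT mouse 2, 5307 with mouse as a random block, 1681 with all 16 arrays, 2649 with the balance term, 22 on slide 1, 6090 on slide 2 and 0 to 7149 with 1 array left out. The Het count of 976 was 6254 without WT mouse 2, 556 with slide as a term, 3 on slide 1, 0 on slide 2, 0 with mouse as a fixed block, 4165 with it as a random block, 2731 with all 16 arrays, 5027 with the balance term, 344 with brightness as a term and 0 to 3731 with 1 array left out. The interaction count of 0 was 4 with no filter, 1 without WT mouse 2, 2 on slide 1, 2148 on slide 2 and 0 to 4737 with 1 array left out. Slide 2 and the fit without WT monosome 1, which gave 4737, leave WT monosome 2 as the only WT monosome array. Whether that array accounts for these counts was not tested. WT and Het counts on either slide, too, rest on 1 monosome array of that genotype. With 1 array left out, the brightness difference was 1.06 to 1.61 and missed the threshold without WT monosome 2, the difference in the percent of spots above background was 5.48 to 9.64 and held only without Het monosome 3, WT monosome 1 or WT polysome 2, and that of the 5′ to 3′ balance was -0.51 to 0.14, positive without WT monosome 2. With 75th percentile scaling, the sign changed for Farsb (0.0084) and Myh4 (0.049). After normexp, the sign changed for Bbc3 (0.061). From the authors' table, the sign changed for Myh4 (0.52). With outlier spots kept, the sign changed for Myh4 (0.0062). Without WT mouse 2, the sign changed for Dmd (-0.0042), Mt2 (-0.42), Ndufa1 (-0.097), Plin1 (0.036), Rps27a (-0.23), Synm (-0.39) and Tmsb4x (-0.14). On slide 1, the sign changed for Bbc3 (0.38), Camk2d (-0.36), Cox7c (0.017), Hist1h4c (0.50), Ifrd1 (-0.32), Lum (-0.45), Mt2 (-1.66), Rps27a (-0.47), Synm (-0.40), Tmem258 (0.28) and Tmsb4x (-0.21). On slide 2, the sign changed for Dmd (-0.26), Farsb (0.18), Hbb-bt (-0.14), Mt1 (0.75), Myh4 (0.11), Sln (0.12) and Utrn (-0.33). With mouse as a fixed block, the sign changed for Bbc3 (0.16), Cox7c (0.0029), Mt2 (-0.17) and Synm (-0.15). With mouse as a random block, the sign changed for Bbc3 (0.059) and Synm (-0.042). With the balance term, the sign changed for Bbc3 (0.033), Hist1h4c (0.058), Mt2 (-0.87), Rps27a (-0.077) and Synm (-0.19). With brightness as a term, the sign changed for 2310015B20Rik (-0.32), Bbc3 (0.38), Bgn (0.0059), Camk2d (-1.41), Cd3e (0.84), Cox7c (0.032), Dlat (-0.039), Epas1 (0.053), Flnc (-0.22), Hba-a2 (0.082), Hdac1 (-0.26), Hist1h4c (1.81), Ifrd1 (-1.40), Kdr (0.52), Lum (-1.54), Mt2 (-3.69), Pdha1 (-0.29), Pdhx (-0.017), Pecam1 (0.35), Rps27a (-0.72), Synm (-0.72), Tmem258 (0.55), Tmsb4x (-0.73) and Ttn (-0.13). With 1 array left out, values that changed sign ran from -0.12 to 0.11 for Bbc3, -0.015 to 0.95 for Cox6c, -0.31 to 0.21 for Cox7c with WT mouse 2 left out as well, -0.043 to 0.42 for Dmd, -0.012 to 0.30 for Flnc, -0.83 to 0.43 for Mt1, -1.04 to 1.17 for Mt2, -0.33 to 0.075 for Myh4, -0.023 to 0.51 for Ndufa1, -0.61 to 0.019 for Plin1, -0.32 to 0.63 for Rps27a, -0.29 to 0.13 for Sln, -0.40 to 0.20 for Synm, -0.29 to 0.96 for Tmsb4x and -0.034 to 0.73 for Utrn. The median over all tested probes was -0.062 for probes above background on all arrays and -0.022 with no filter. List medians that changed sign were those of sirtuins and deacetylases (-0.069 for probes above background on all arrays, -0.028 without WT mouse 2, and up to 0.43 with 1 array left out), elongation factors and other TOP mRNAs (0.30 on slide 2, -0.48 to 0.17 with 1 array left out, positive without WT monosome 1), iron-regulated mRNAs (0.14 on slide 2, 0.18 with brightness), micropeptides (0.027 without Het polysome 3), upstream open reading frame mRNAs (-0.061 on slide 1, -0.55 with brightness), and markers of blood cells (0.54 on slide 1, 0.020 with mouse fixed, 0.065 with balance, 0.97 with brightness, -0.46 to 0.068 with 1 array left out, positive without WT monosome 2), fibroblast (-0.045 on slide 1, -0.19 with brightness) and endothelium (0.38 with brightness). The cause of these changes was not tested. Dim probes, and monosome arrays with less signal over background, limit what could be measured there.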
